A study of Mus musculus with 8 samples.

Results

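The genes described here are 7 tetraspanins of leukocytes, Cd9, Cd63, Cd81, Cd82, Cd37, Cd53 and Cd151. They were taken by symbol from a deposited table of 38026 mouse genes, in which each of the 7 symbols matched 1 row. RNA-seq had been done on 8 libraries of cells captured with beads against CD11b, an integrin subunit found on myeloid cells. The 5 TAM libraries (tumor-associated microglia and macrophages) came from medulloblastoma, which grows in the cerebellum, in C57BL/6 mice of postnatal day 68, 90, 61, 66 and 62 (replicates 1 to 5). The other 3 held microglia from the cerebral cortex of C57BL/6 mice of postnatal day 60, so tumor, brain region and age cannot be told apart. How the tumors arose is not stated, and whether a library held cells of 1 mouse or of several is likewise not given. The 5 TAM libraries are of different ages, whereas the 3 microglia libraries are all of postnatal day 60. If the microglia libraries did not come from separate animals, their spread is technical and p-values rest partly on it. Values are TPM (transcripts per 1000000, scaled per transcript length), which keeps no read depth, so no counting error is given. As bulk libraries, they cannot tell fewer cells of a type from less RNA per cell.

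Tetraspanins are small membrane proteins that cross the membrane 4 times and gather integrins, receptors and proteases into microdomains. CD63 cycles between lysosomes, late endosomes and the cell surface. It is used, with CD9 and CD81, to recognise exosomes, the vesicles that multivesicular bodies release. CD9 and CD81 bind the immunoglobulin proteins EWI-2 and CD9P-1 and restrain the fusion of macrophages. CD37 and CD53 are largely restricted to blood cells, CD82 is known as a suppressor of metastasis, and CD151 binds laminin-binding integrins on endothelial and epithelial cells.

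Of the 7 genes, 1 was higher in TAMs, 4 were lower and 2 were not called by limma on log2(TPM + 1) at an adjusted p of 0.05 (Benjamini-Hochberg over 15262 tested genes). Cd63 rose 4.45-fold on the log2(TPM + 1) scale, which all fold changes here use, while Cd82, Cd37, Cd53 and Cd151 fell, by log2 fold changes of -0.66 to -1.32. Cd9 and Cd81 were not called. Over all tested genes 8.22% were called higher and 56.4% lower, and the median log2 fold change was -0.65, so 4 lower genes of 7 is close to the share of all genes. A rescaled TPM was therefore set beside it, in which each library was divided by its median ratio to the geometric mean library. It moved the median of all tested genes to -0.13, with 21.4% called higher and 29.4% lower. On that scale Cd63 was again higher and Cd151 was the 1 member lower, while Cd82, Cd37 and Cd53 lost their calls. The median log2 fold change of the 7 was -0.66 on TPM and -0.06 on rescaled TPM.

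The sequences upstream of 3 members are shown because they stand for the 3 outcomes among the called members: Cd63 rose, Cd53 fell on TPM alone and Cd151 fell on both scales. They are the 250 bases before the RefSeq start nearest to the deposited gene start, on GRCm38.p6 (mm10), and all 7 members had an entry. Capitals mark GAGGAA or its complement TTCCTC, the core bound by PU.1 and related factors of myeloid cells, and GGGCGG or CCGCCC, the GC box. None of the 3 holds CACGTG, the E-box, or TATAAA or TTTATA, the TATA box, and the marked motifs do not overlap.
Cd63, chr10:128909095-128909344, plus strand: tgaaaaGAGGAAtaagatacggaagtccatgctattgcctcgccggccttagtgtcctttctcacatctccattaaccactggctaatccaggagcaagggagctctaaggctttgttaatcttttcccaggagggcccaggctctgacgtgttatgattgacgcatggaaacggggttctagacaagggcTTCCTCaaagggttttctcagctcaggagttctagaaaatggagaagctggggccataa
Cd53, chr3:106790150-106790399, minus strand: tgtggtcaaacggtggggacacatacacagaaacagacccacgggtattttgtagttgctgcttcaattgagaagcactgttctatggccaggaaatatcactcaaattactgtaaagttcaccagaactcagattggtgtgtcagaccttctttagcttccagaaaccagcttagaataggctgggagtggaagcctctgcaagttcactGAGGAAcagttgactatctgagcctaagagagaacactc
Cd151, chr7:141467112-141467361, plus strand: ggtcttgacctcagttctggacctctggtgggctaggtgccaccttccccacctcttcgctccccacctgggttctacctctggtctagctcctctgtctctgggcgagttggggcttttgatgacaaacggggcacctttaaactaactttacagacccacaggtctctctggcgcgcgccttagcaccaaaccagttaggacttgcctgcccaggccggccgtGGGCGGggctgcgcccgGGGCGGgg
The Cd63 window holds 2 GAGGAA cores and no GC box, the Cd53 window 1 core and no GC box, and the Cd151 window 2 GC boxes and no core. Of the other members, Cd37 had 2 cores, 1 GC box and 1 E-box, and Cd9, Cd81 and Cd82 had 2, 3 and 1 GC boxes and no core. Of 32851 mouse windows of the same length, 23.3% held the core, 32.7% the GC box, 6.02% the E-box and 12.4% the TATA box. Cores were thus present upstream of the member that rose and of 2 that fell on TPM, and their presence did not separate the directions. The Cd63 start in RefSeq lies 426 bases inside the deposited gene, and the Cd151 window lies over an exon of the antisense gene Gm10575.

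Cd63 (ENSMUSG00000025351, chromosome 10, 128908919 to 128912816 on mm10) encodes the lysosomal and exosomal tetraspanin. Its TPM was 1383, 1094, 1847, 1614 and 1721 in TAM replicates 1 to 5 and 362, 333 and 320.2 in microglia replicates 1 to 3. All 5 TAM libraries lay above all 3 microglia libraries, as for 7.97% of tested genes (21.5% rescaled). The means were 1532 ± 298 TPM (SD, n = 5) and 338 ± 21.2 TPM (SD, n = 3). In limma this gave a log2 fold change of 2.15 (SE 0.17, adjusted p = 6.6e-05) and, after rescaling, of 2.75 (adjusted p = 6.0e-05). An exact permutation test over the libraries gave a two-sided p of 0.0357, the smallest that 56 ways of choosing 3 of 8 libraries allow, and the same p was found for Cd82, Cd37, Cd53 and Cd151, with 0.571 for Cd9 and 0.179 for Cd81. In the authors' deposited table its log2 fold change was 2.96. By mean TPM Cd63 stood at place 375 of all genes in microglia and at place 56 in TAMs, and 181 tested genes rose more. A processed pseudogene, Cd63-ps, matches the Cd63 transcripts at up to 99.0% identity and was listed at no more than 0.502 TPM in any library.

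Cd9 (ENSMUSG00000030342, chromosome 6, 125460266 to 125494791), the partner of EWI-2 and of several integrins, varied the most within TAMs. It stood at 1135, 196, 668, 1274 and 732 TPM in TAM replicates 1 to 5 and at 647, 489.8 and 455 TPM in microglia. In 4 TAM libraries it lay above every microglia library, and in TAM replicate 2 it lay below every one. The highest TAM library held 6.50 times the lowest, against 1.69 times for Cd63. The log2 fold change of 0.36 (SE 0.55, adjusted p = 0.578) had a 95% interval of -0.89 to 1.62 and was not called, nor was the rescaled 0.96 (adjusted p = 0.208). Without TAM replicate 2 the mean was 952 ± 298 TPM (SD, n = 4) and Cd9 was called higher, at 0.80 (adjusted p = 0.0260), or 1.40 rescaled (adjusted p = 0.0136). In that fit 2 of the 7 members were higher and 4 lower, against 8.62% and 55.2% of all tested genes, and 2 higher and 1 lower on rescaled TPM, against 22.4% and 29.4%. In the authors' deposited table Cd9 had a log2 fold change of 1.35 with a DESeq2 p of 0.00961, or 0.0308 adjusted here, where 17.6% of the 27039 genes with a p were higher and 16% lower at 0.05.

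Cd81 (ENSMUSG00000037706, chromosome 7, 143052739 to 143067934), also a partner of EWI-2, was the most abundant member in microglia. Its TPM was 875, 339, 644, 912 and 524 in the TAMs and 924, 939 and 849 in microglia. TAM replicates 1 and 4 reached the microglia range and the other 3 lay below it, with replicate 2 the lowest. The log2 fold change was -0.54 (95% interval -1.24 to 0.16, limma adjusted p = 0.146) on TPM, and after rescaling 0.06 (-0.77 to 0.89, adjusted p = 0.908), so its direction differed between the scales and neither was called.

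On TPM, TAM replicate 2, of postnatal day 90, was the lowest TAM library for Cd63, Cd9, Cd81 and Cd37, but not for Cd53, Cd82 or Cd151. On rescaled TPM Cd82 was lowest there too, by a small margin (97.5, the next being 98.6). The summed TPM of 11 markers of resting microglia, among them P2ry12 and Tmem119, was 3355 there, 7037 to 8984 for the remaining TAMs and 16512 to 19690 for microglia. P2ry12 alone was at 65.0 to 382 TPM in TAMs and at 1972 to 2586 TPM in microglia. The 7 neutrophil markers summed to 401 TPM there, while the remaining TAM libraries had 55.1 to 181 and microglia 14.0 to 31.4, and 2 of 4 tested were higher in TAMs. Most of the sum in TAMs was S100a8 and S100a9, and Ly6g, Mpo and Elane stayed under 1 TPM in every library. The 7 markers of monocyte-derived cells summed to 9540 TPM in TAM replicate 2, within the 5252 to 11689 of the other TAM libraries, and to 607 to 1007 in microglia, with 4 of 7 called higher. Lyz2 made up most of each sum. Of the others, Ccr2 (48.3 TPM, against 2.62 to 17.0), Chil3 (41.5, against 1.81 to 19.2) and Itga4 (18.8, against 5.88 to 10.05) were highest in TAM replicate 2, and Itgal, Ly6c2 and Plac8 were not. The 6 markers of platelets, cells rich in CD9, summed to 259 TPM in TAM replicate 2 and to 48.6 to 149 TPM in the other TAMs. In microglia the sum was 257 to 390.2 TPM. Of 3 platelet markers tested, 3 were lower (2 rescaled). Of all tested genes 8.22% were higher and 56.4% lower (21.4% and 29.4% rescaled). Pf4 made up nearly all of the platelet sum in TAMs (257 of 259 TPM in replicate 2), where the other 5 markers were each under 2 TPM. Microglia had Pf4 at 208 to 330 TPM and Gp9 at 44.1 to 56.6 TPM. The part of these cells in the tetraspanin values was not tested.

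**Figure D1:**
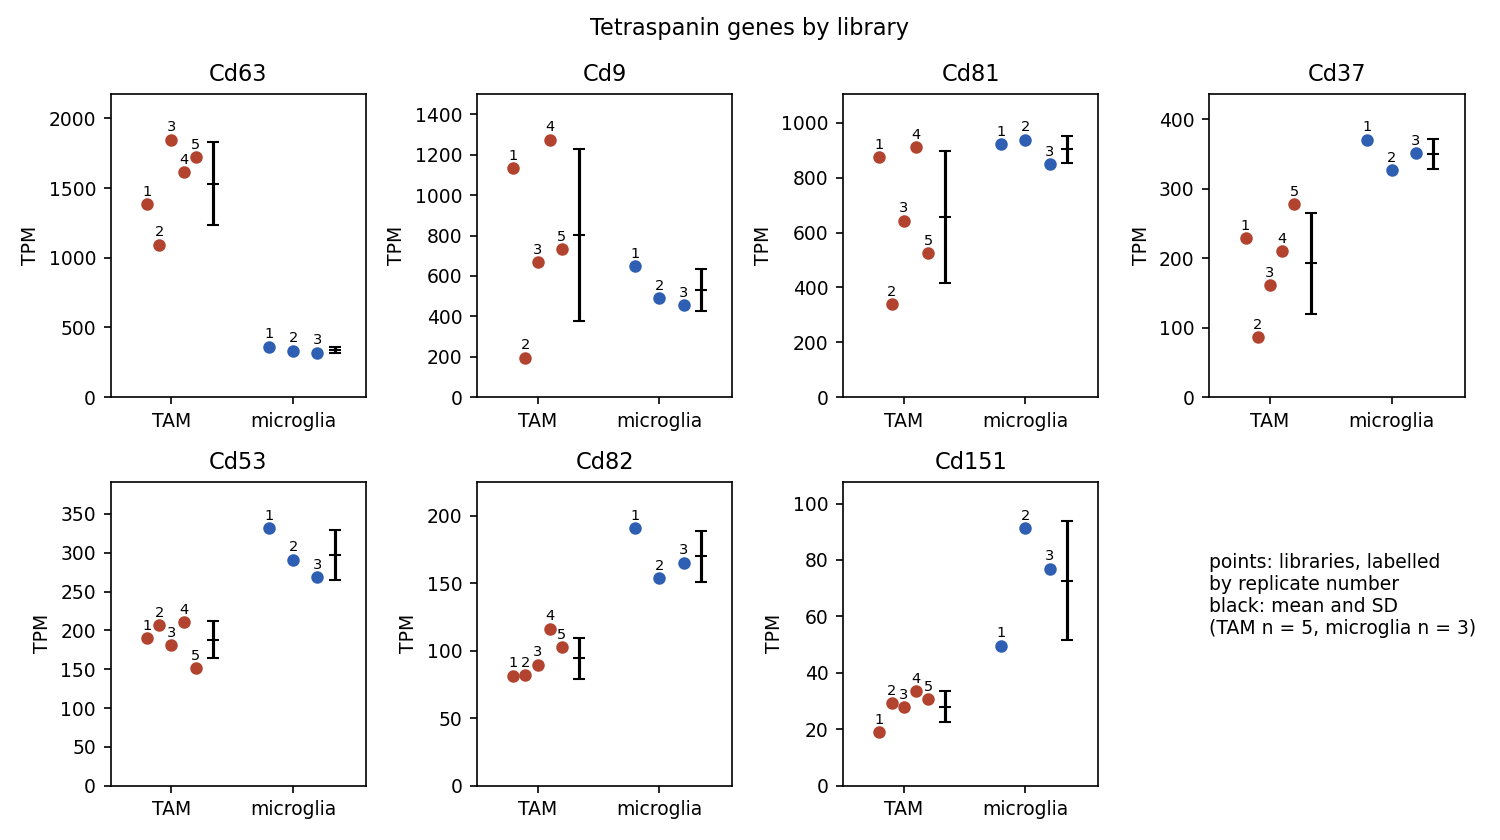
TPM of the 7 tetraspanin genes (vertical axes, from 0) in the 5 TAM and 3 microglia libraries, 1 point per library with its replicate number, and the mean and SD in black. Cd63 is higher in every TAM library, Cd82, Cd37, Cd53 and Cd151 are lower in every one, and Cd9 and Cd81 overlap between the groups, with TAM replicate 2 lowest.

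Cd37 and Cd53 are the members most restricted to leukocytes. Cd37 (ENSMUSG00000030798, chromosome 7, 45233632 to 45239115) was at 229, 86.7, 161, 209.8 and 278 TPM in TAMs against 370.4, 327 and 351 TPM in microglia. The groups did not overlap, but TAM libraries differed among themselves by up to 3.20 times, with replicate 2 lowest. Its limma log2 fold change came to -0.95 (SE 0.33, adjusted p = 0.0330). It was no longer called without TAM replicate 3 (adjusted p = 0.0625) and without any 1 microglia library (adjusted p = 0.0761 to 0.0858). On rescaled TPM it was -0.36 without a call (adjusted p = 0.398).

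Cd53 (ENSMUSG00000040747, chromosome 3, 106759921 to 106790149) was on TPM the steadiest member among TAMs, at 190.4, 207, 181, 211 and 151 TPM, against 331, 291 and 269 TPM in microglia. It was not on rescaled TPM, where its SD in TAMs was 45.4 on a mean of 222, against 18.0 on 110 for Cd82. On TPM all TAM libraries lay below all microglia libraries, as they did for Cd82, Cd37 and Cd151 and for 49.7% of tested genes. On rescaled TPM Cd53, Cd82 and Cd37 overlapped between the groups. Cd151 stayed below without overlap, as did 28.2% of tested genes. TAM replicate 2 was the second highest of the 5 for Cd53. Its limma log2 fold change came to -0.66 (SE 0.13, adjusted p = 0.00275), about that of the median gene, and after rescaling was -0.06 (adjusted p = 0.822). Cd53 thus fell on TPM, while the 95% interval of the rescaled value, -0.56 to 0.43, held 0.

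Cd82 (ENSMUSG00000027215, chromosome 2, 93419111 to 93463140), the metastasis suppressor also called KAI1, was at 81.4, 81.8, 89.5, 116 and 103 TPM in TAMs against 191, 153 and 165 TPM in microglia, again without overlap. Its limma log2 fold change came to -0.85 (SE 0.14, adjusted p = 0.00133). On rescaled TPM it was -0.25 without a call (adjusted p = 0.253), with a 95% interval of -0.65 to 0.15. In the authors' deposited table Cd37, Cd53 and Cd82 had log2 fold changes of -0.07, 0.16 and -0.05, and none was called after adjustment.

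Cd151 (ENSMUSG00000025510, chromosome 7, 141467362 to 141471479), the partner of laminin-binding integrins, was the least abundant member and had the largest fall. It was at 18.9, 29.2, 27.8, 33.5 and 30.8 TPM in TAMs against 49.7, 91.2 and 76.9 TPM in microglia, without overlap. Its limma log2 fold change came to -1.32 (SE 0.23, adjusted p = 0.00171) and to -0.73 after rescaling (adjusted p = 0.0107). After rescaling it was not called without microglia replicate 2 (-0.62, adjusted p = 0.0537). In the authors' deposited table it fell by 0.501 with a DESeq2 p of 0.0165, or 0.0492 adjusted here.

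Cd151 is abundant in vessels, and the 10 endothelial markers summed to 692, 2229 and 1639 TPM in microglia replicates 1 to 3. Across those 3 libraries Cd151 and the endothelial sum had the same order, lowest in replicate 1 and highest in replicate 2. In TAMs the sum was 18.9 to 121 TPM, and 10 of 10 markers were lower, with the largest falls in Ly6c1 and Slco1a4 and none at 0. Among the TAM libraries Cd151 and the sum did not have the same order. The sum was highest in TAM replicate 1 (121 TPM, of which Ly6a was 102), where Cd151 was lowest (18.9 TPM). It was lowest in TAM replicate 3 (18.9 TPM), where Cd151 was at 27.8 TPM. Markers of mural cells (7 of 7), astrocytes (6 of 8) and oligodendrocytes (8 of 8) were also lower in TAMs, with sums of 290 to 799, 103 to 651 and 166 to 859 TPM in microglia and of at most 21.6, 76.7 and 57.3 TPM in TAMs. Each of these sums was again lowest in microglia replicate 1 and highest in replicate 2. Of all tested genes 56.4% were called lower (29.4% rescaled). Gm10575, which overlaps Cd151 on the other strand, was at 2.24 to 6.28 TPM in TAMs against 9.35 to 18.7 TPM in microglia, and whether reads were counted by strand is not given in the sources used here. What part these cells and the antisense gene have in the fall of Cd151 was not tested. R74862, which overlaps Cd81 on the other strand, stayed at 6.54 TPM or less. Gm26728, which overlaps Cd9 on the other strand, had no entry among the genes listed, so its level is not known.

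**Figure D2:**
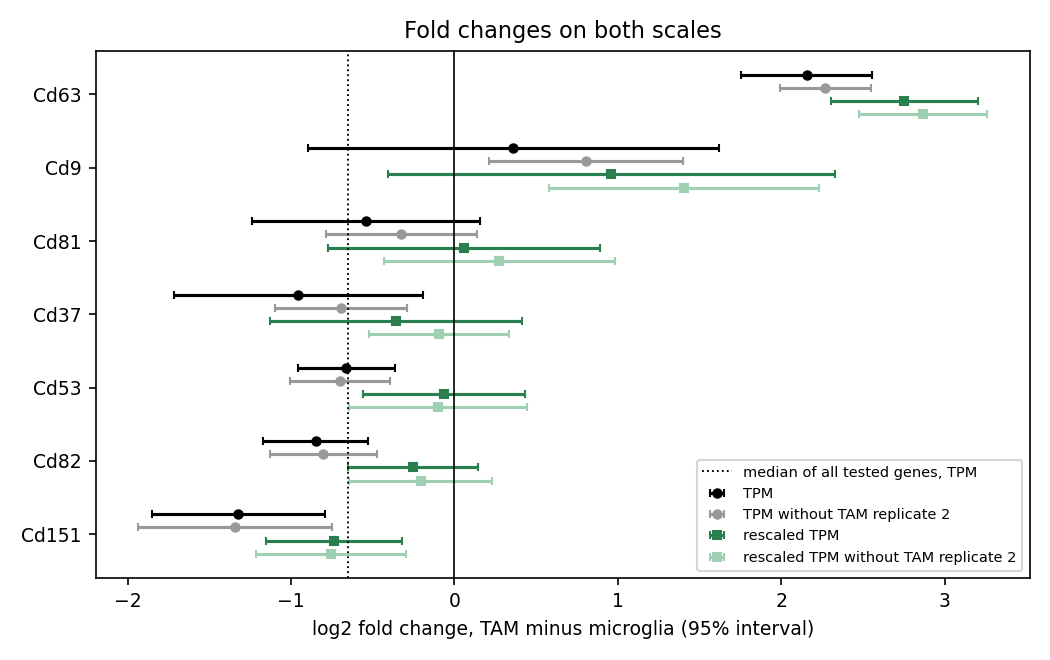
Log2 fold change of each member, TAM minus microglia, with its 95% interval (limma), on TPM (circles) and rescaled TPM (squares), for all 8 libraries (dark) and without TAM replicate 2 (light). Cd63 lies right of 0 and Cd151 left of 0 in all 4, Cd9 lies clear of 0 without TAM replicate 2, and Cd82, Cd37 and Cd53 lie near the dotted median of all genes (-0.65) on TPM and their intervals reach 0 on rescaled TPM with all 8 libraries.

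Because TPM is per length, the members can be ranked within a library. In microglia the order of mean TPM was Cd81 (904 ± 47.9, SD, n = 3), Cd9 (531 ± 102), Cd37 (349.6 ± 21.8), Cd63 (338 ± 21.2), Cd53 (297 ± 31.7), Cd82 (169.7 ± 19.0) and Cd151 (72.6 ± 21.1). Each exceeded the next in 3 of 3 libraries, except that Cd37 exceeded Cd63 in 2 of 3. In TAMs the order was Cd63 (1532 ± 298, SD, n = 5), Cd9 (801 ± 425), Cd81 (659 ± 241), Cd37 (193 ± 72.6), Cd53 (188 ± 23.9), Cd82 (94.3 ± 14.9) and Cd151 (28.0 ± 5.52). Cd9 exceeded Cd81 in 4 of 5 TAM libraries and Cd37 exceeded Cd53 in 2 of 5, so the order of these neighbours was not the same in every library, and the other steps held in 5 of 5. The order of the 2 groups thus differed by the move of Cd63 to the top and by Cd9 and Cd81 changing places.

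The make-up of the tetraspanin RNA does not depend on how a library is scaled. Cd63 was the highest member in every TAM library and Cd81 in every microglia library. Cd63 made up 35.4%, 53.8%, 51.0%, 36.9% and 48.6% of the summed TPM of the 7 genes in TAM replicates 1 to 5, and 12.6%, 12.7% and 12.9% in microglia. The TAM libraries fall into a range that is wide but far from that of microglia. The shares of Cd81 (14.8% to 22.4% in TAMs, 32.1% to 35.8% in microglia), Cd37 (4.26% to 7.85%, 12.5% to 14.1%), Cd53 (4.27% to 10.2%, 10.8% to 11.5%), Cd82 (2.08% to 4.02%, 5.85% to 6.64%) and Cd151 (0.484% to 1.44%, 1.73% to 3.48%) were all lower without overlap. A larger share of Cd63 lowers the others by itself, since the shares sum to the whole. The shares of Cd9 overlapped, at 9.64% to 29.1% in TAMs and 18.3% to 22.5% in microglia. The sum of the 7 was 2033 to 4370 TPM in TAMs against 2487 to 2874 TPM in microglia, which overlapped.

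**Figure D3:**
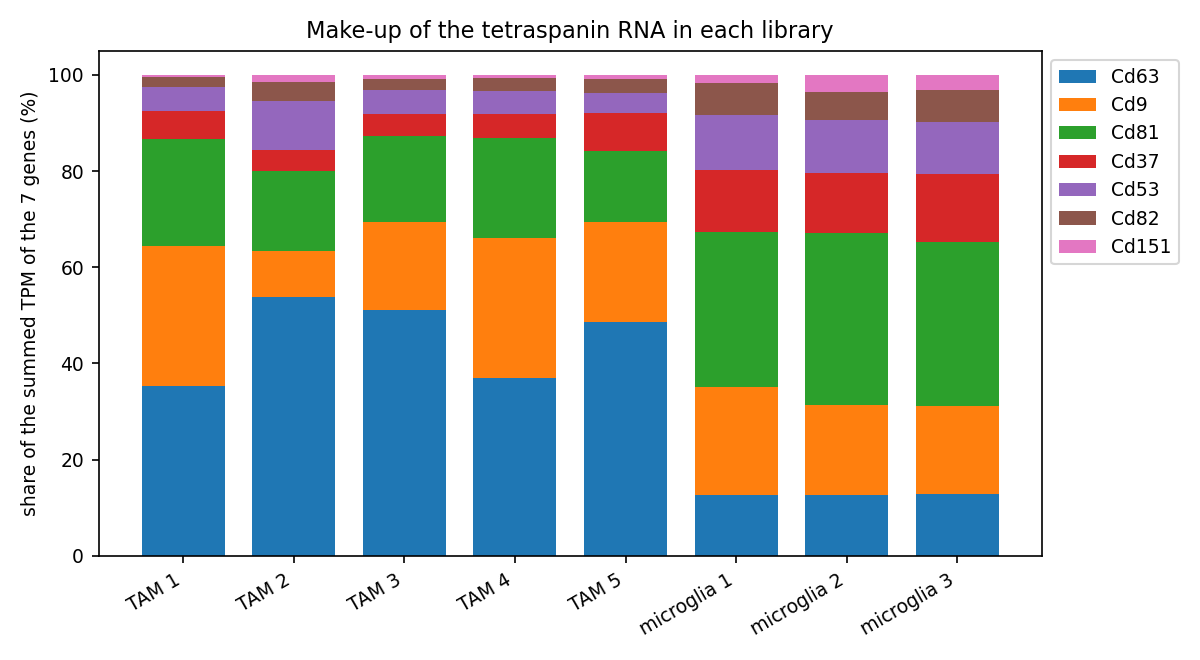
Share of each of the 7 genes in their summed TPM (vertical axis, percent), 1 bar per library. The Cd63 share is 35.4% to 53.8% over the 5 TAM bars against 12.6% to 12.9% over the 3 microglia bars, and the Cd9 share is smallest in TAM replicate 2 (9.64%).

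Ratios of pairs of members, also free of the scaling, are given as a description. The ratio of Cd63 to Cd81 TPM was 1.58, 3.23, 2.87, 1.77 and 3.28 in TAM replicates 1 to 5 and 0.392, 0.355 and 0.377 in microglia, a log2 difference of 2.70 without overlap. The ratio of Cd9 to Cd81 was 1.30, 0.579, 1.04, 1.40 and 1.40 in TAMs and 0.700, 0.522 and 0.536 in microglia. In 4 TAM libraries it lay above 1 and above all microglia libraries, and in TAM replicate 2 it lay within the microglia range. The ratios of Cd82 to Cd81, Cd53 to Cd81, Cd37 to Cd53 and Cd151 to Cd81 overlapped between the groups, with log2 differences of -0.31, -0.12, -0.29 and -0.81. Both Cd63 and Cd9 therefore stood higher against Cd81 in TAMs, Cd63 in 5 of 5 libraries and Cd9 in 4 of 5.

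**Figure D4:**
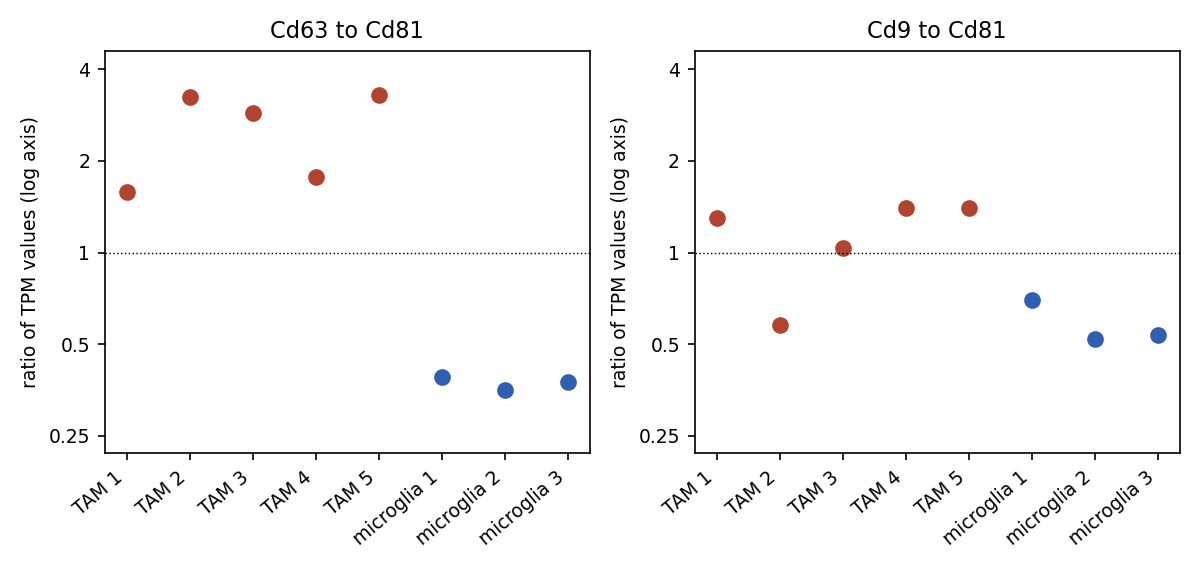
Ratio of Cd63 to Cd81 TPM (left) and of Cd9 to Cd81 TPM (right) in each library, on a log axis with a dotted line at 1, TAMs in red and microglia in blue. All 5 TAM libraries lie above 1 for Cd63 and all microglia libraries below it, while for Cd9 TAM replicate 2 (0.579) lies among the microglia libraries.

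The list held 24 other tetraspanins, and the 7 members made up 83.5% to 89.0% of the TPM of all 31 tetraspanins in TAMs and 70.8% to 76.6% in microglia, without overlap. A larger Cd63 value raises the share of the 7 by itself, and the share without Cd63 was not computed. Of the 20 other tetraspanins tested, 1 was higher in TAMs and 14 lower (limma), and on rescaled TPM 3 were higher and 9 lower. The shares of all tested genes were 8.22% higher and 56.4% lower, or 21.4% and 29.4% on rescaled TPM. Their median log2 fold change was -1.27, or -0.70 rescaled, against -0.65 and -0.13 for all tested genes. Tspan13 had the lowest p. It was at 24.3, 38.8, 24.8, 23.0 and 39.2 TPM in TAMs against 109.5, 132 and 128 TPM in microglia (a limma log2 difference of -2.04, adjusted p = 0.000168, and -1.45 rescaled). Tspan14, a carrier of the protease ADAM10, fell from 184 ± 1.70 to 76.3 ± 13.2 TPM (-1.27, adjusted p = 0.000213, and -0.68 rescaled). Tspan5 and Tspan18 fell by 1.90 and 1.87 on the log2 scale, and both fell on rescaled TPM too. Tspan7, the most abundant of them in microglia, was at 113, 19.6, 112, 155 and 188 TPM in TAMs against 199 to 262 TPM in microglia. Its lowest library was again TAM replicate 2, and it was not called (-1.28, limma adjusted p = 0.111) but was called lower without that library (-0.72, adjusted p = 0.0163).

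The 1 called higher among these other tetraspanins was Tspan10, which falls outside the rule for named genes and was chosen after its values were seen. It was at 2.36, 0.341, 2.59, 1.40 and 2.15 TPM in TAMs against 0.146 to 0.291 TPM in microglia, so its level was low in both (log2 fold change 1.09, limma adjusted p = 0.0175, and 1.28 rescaled). Of the tested ones outside the 7 members, 9 had means under 10 TPM in both groups. Without microglia replicate 2 or 3 none was called higher and 8 or 9 were called lower, and without TAM replicate 5, 2 were called higher.

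**Figure D5:**
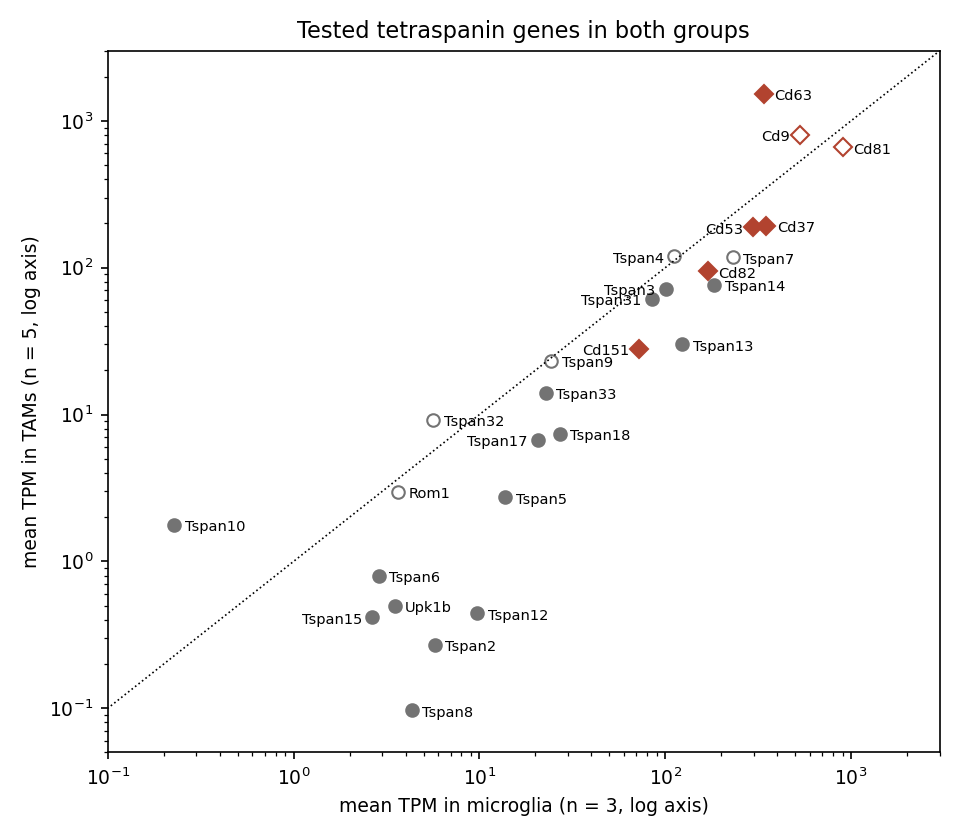
Mean TPM of each tested tetraspanin in microglia (horizontal, n = 3) and in TAMs (vertical, n = 5), both on log axes with a dotted line of equality. Red diamonds are the 7 members, grey circles the other 20, filled where limma called a difference on TPM. Cd63 and Tspan10 are the filled points above the line.

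Some tetraspanin genes lie side by side. Tspan4 begins 3760 bases beyond the end of Cd151 on chromosome 7 and Tspan32 ends 33094 bases before Cd81. Tspan4 was at 119 ± 20.0 TPM in TAMs against 112 ± 5.43 TPM in microglia (log2 fold change 0.08, limma adjusted p = 0.674), while its neighbour Cd151 fell by 1.32. On rescaled TPM Tspan4 was called higher at 0.67 (adjusted p = 0.00593) and Cd151 lower at -0.73. These neighbours therefore had calls of opposite direction on the scale that follows the median gene. Tspan32 was at 9.24 ± 3.70 TPM in TAMs against 5.64 ± 1.34 TPM in microglia (0.58, adjusted p = 0.106, and 1.09 rescaled, adjusted p = 0.0268). Its neighbour Cd81 was not called on either scale. Tspan18 lies 84605 bases from Cd82 on chromosome 2, and both fell on TPM, by 1.87 and 0.85, while on rescaled TPM Tspan18 fell by 1.32 and Cd82 was not called. The nearest tetraspanin to each of the other 4 members was over 1000000 bases away.

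Tspan5, Tspan10, Tspan14, Tspan15, Tspan17 and Tspan33 are the TspanC8 tetraspanins, which carry ADAM10, a protease that sheds membrane proteins, to the cell surface. Of these 6 genes and Adam10, 1 was higher and 6 lower, beside 8.22% and 56.4% of all tested genes, or 1 and 3 on rescaled TPM, beside 21.4% and 29.4%. Adam10 itself ranged over 57.2 to 80.2 TPM in TAMs against 99.5 to 109.2 TPM in microglia (log2 fold change -0.52, limma adjusted p = 0.00559), and stood at 0.07 without a call on rescaled TPM. Tspan33 stood at -0.68 with a call on TPM and -0.11 without one on rescaled TPM. Tspan14 and Tspan5 were the TspanC8 genes above 10 TPM in microglia that were lower on both scales.

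Of 21 genes of proteins known to bind tetraspanins, 18 were tested, of which 4 were higher and 6 lower in TAMs (9 and 3 rescaled). Of all tested genes 8.22% were higher and 56.4% lower (21.4% and 29.4% rescaled). The median log2 fold change of the partners was 0.09 (0.67 rescaled), against -0.65 (-0.13 rescaled) for all tested genes. Igsf8, which encodes EWI-2, the partner of CD9 and CD81, was highest in TAM replicate 4 and at 107 to 229 TPM in TAMs against 94.5 to 121 TPM in microglia (0.31, limma adjusted p = 0.275, and 0.91 rescaled, adjusted p = 0.0355). It was not called on rescaled TPM once TAM replicate 2 was left out (adjusted p = 0.0542). Itga6, the laminin-binding integrin subunit that CD151 joins, fell from 129 ± 1.74 to 56.2 ± 13.4 TPM (-1.22, adjusted p = 0.000977), with -0.63 and no call on rescaled TPM (adjusted p = 0.0665). Itgb1, its beta subunit, fell by 0.80 on TPM and stood at -0.20 without a call rescaled. Hbegf, a growth factor precursor that CD9 binds, fell by 2.14 (1.58 rescaled), and Icam1, an adhesion molecule, fell by 1.39 (0.79 rescaled). Msn, which encodes moesin, a link between membrane and actin, was at 244 ± 18.3 and 250.4 ± 6.14 TPM (-0.04, adjusted p = 0.723, and 0.56 with a call rescaled). Ifitm3, an interferon-induced membrane protein, was at 66.5 to 334 TPM in TAMs against 115 to 204 TPM in microglia and was not called. The 4 that rose, named after their values were seen, were Cd4, Cd44, Vcam1 and Cd36. Without microglia replicate 1, 2 of the partners were higher.

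Of 17 genes of multivesicular bodies and vesicle release, where CD63 resides, 15 were tested, with 3 higher and 6 lower (8 and 0 rescaled), where all tested genes had 8.22% higher and 56.4% lower (21.4% and 29.4% rescaled). Their median log2 fold change was -0.21 (0.38 rescaled), and that of all tested genes -0.65 (-0.13 rescaled). Lamp1, a lysosomal membrane protein found beside CD63, averaged 1362 ± 189.8 TPM in TAMs against 657 ± 47.5 TPM in microglia (log2 1.04, limma adjusted p = 0.000587). Sdcbp, which encodes syntenin, a scaffold that binds the tail of CD63, ranged over 441 to 630.5 TPM in TAMs against 258 to 303 TPM in microglia (log2 0.94, adjusted p = 0.000710). The third, Chmp4b, a subunit of the ESCRT-III machinery, rose by 0.36. All 3 were higher on both scales, and by less than Cd63. Rab35, a small GTPase of vesicle release, and Hgs, an ESCRT-0 subunit, fell by 0.74 and 0.63 on TPM and stood at -0.15 and -0.05 without a call rescaled.

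For each member the 3 genes with the most similar profile were sought among 8253 tested genes with a mean of 10 TPM or more, by the root mean square difference of centred log2(TPM + 1) over the 8 libraries. For Cd63 these were Glb1, a lysosomal galactosidase (difference 0.113), Ctsb, a cathepsin (0.137), and Fblim1, a filamin-binding protein (0.156). For Cd9 they were the chemokine gene Cxcl10 (0.237), Speg (0.281) and Lag3 (0.355), which were farther from it than the nearest genes of any other member. For Cd81 they were Sema4d (0.135), Itgb5 (0.155) and Ang (0.160), and for Cd37 Ptgs1 (0.125), Mzt2 (0.147) and Il1rl2 (0.163). The profile of Cd82 was nearest to Plek (0.0992), Tmem185b (0.0995) and Cebpa (0.106), that of Cd53 to Dhrs7b (0.0813), Orai3 (0.105) and Syngr2 (0.109), and that of Cd151 to Ccdc85b (0.0949), Strn4 (0.136) and Klhl2 (0.146). The libraries are shared by all these genes, and the likeness is a description.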

How the data were processed

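The members and gene lists were chosen with earlier results of these data known. The authors' deposited table gives TPM per library, per the file headers, summing to 990422 to 997832 per library over the genes listed. It also gives the DESeq2 mean signal, the log2 fold change and the unadjusted p-value of the authors' comparison, per the file headers. Per the submitters' processing notes, mm10, FastQC and DESeq2 were used, with aligner, quantifier and strandedness not given in the sources used here. A further 3 unnamed columns were not used, and 1 marker list is not reported here.

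Libraries were grouped by their titles. Of 38026 genes, 15262 reached 1 TPM in 3 or more libraries and were tested with limma 3.58.1 in R 4.3.3 on log2(TPM + 1) with an intensity trend, with Benjamini-Hochberg adjustment and a threshold of 0.05. A fold change on this scale understates the change of low genes. Rescaled TPM used the median ratio over genes above 1 TPM in every library. Copies were sought with blastn 2.17.0 in GENCODE M21. Promoters came from RefSeq (GRCm38.p6).

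Named genes were the members and, per list, up to 4 called genes of lowest p with a mean of at least 10 TPM in 1 group, the 2 of highest level, Tspan4, Tspan32, Adam10 and Igsf8. Alternatives covered scaling, filter, pseudocount, age, a replicate block, the trend and leaving out each library. TPM keeps no depth, and no interval for counting error was computed.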

Additional observations from a re-analysis of the deposited data

Results flagged for a closer look

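In 34 sets of values over the 5 TAM libraries, 2 held a library that stood apart from the rest, by Dixon's test at the 95% level. Chance flags about 1 in 20 such groups, or 1.7 of 34. Igsf8, the gene of the CD9 and CD81 partner EWI-2, was at 229 TPM in TAM replicate 4 and at 107 to 133 TPM in the other 4. The gap was 0.784 of the whole range, above the critical value of 0.71. The ratio of Cd53 to Cd81 TPM was 0.611 in TAM replicate 2 and 0.218 to 0.288 in the other 4, a gap of 0.820 of the range. In that library Cd81 was the lowest of the 5 and Cd53 the second highest.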

How the results depend on the processing

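Cd63 was called higher under all alternatives run. Cd151 was called lower under all but 1, at -0.62 on rescaled TPM without microglia replicate 2. On rescaled TPM Cd82, Cd37 and Cd53 lost their calls, at -0.25, -0.36 and -0.064, and Cd81 turned to 0.057. Cd37 also lost its call at -0.76 on TPM without 3 features rich in small RNA, at -0.79 over protein-coding genes, at -0.95 with no filter and at -0.52 with age as a covariate. With age on TPM Cd9 stood at 1.05 (adjusted p = 0.0524) and Cd81 at -0.22 (adjusted p = 0.4996), by limma and without a call. The sample labels give no pairing of the same-numbered replicates 1 to 3 of the groups. Same-numbered libraries correlated in their deviations from the group means at 0.150, 0.0139 and -0.0507 on TPM, and the other pairs at -0.118 to 0.0834. Deviations sum to 0 within a group, so these values cannot decide whether same-numbered libraries share a batch. With the replicate block on TPM no call of a member changed, Cd9 stood at 0.015 (adjusted p = 0.979), and the TspanC8 group with Adam10 had 0 higher. The replicate block on rescaled TPM, chosen after seeing the data, gave Cd81 0.023, Cd82 -0.33, Cd37 -0.57 and Cd53 0.051. Age on rescaled TPM, also chosen later, gave Cd9 1.62 with a call, Cd81 0.34, Cd82 -0.20, Cd37 0.045 and Cd53 -0.18. Age differed only among the TAM libraries, where replicate 2 was of day 90 and the rest of day 61 to 68. The age fits therefore rest largely on TAM replicate 2 and are not independent of leaving it out. Leaving out each library in turn gave, on TPM and on rescaled TPM, Cd9 0.13 to 0.80 and 0.72 to 1.40, Cd81 -0.68 to -0.33 and -0.10 to 0.27, Cd82 -0.93 to -0.76 and -0.40 to -0.080, Cd37 -1.11 to -0.69 and -0.48 to -0.096, Cd53 -0.73 to -0.58 and -0.15 to 0.11, and Cd151 -1.57 to -1.14 and -0.89 to -0.62. Rescaling moved the numbers higher and lower to 3233 and 4426 for all genes, 3 and 9 for the other tetraspanins, 9 and 3 for the partners and 8 and 0 for the vesicle genes, and the numbers lower to 1 for the members and 3 for the TspanC8 group. At a filter of 5 TPM, which tests fewer genes, 0 other tetraspanins were higher and 8 lower, with 0 TspanC8 genes higher, and without the small RNA features 5 vesicle genes were higher. Leaving out libraries gave, over both scales, 894 to 3379 genes higher and 2401 to 9243 lower (5581 on TPM without microglia replicate 2), 1 to 2 members higher and 0 to 4 lower, 0 to 4 other tetraspanins higher and 5 to 14 lower, 0 to 1 TspanC8 genes higher and 2 to 6 lower, 2 to 10 partners higher and 1 to 6 lower, and 3 to 9 vesicle genes higher and 0 to 7 lower. The cause of these changes was not tested. The ratios turned sign in 1 case, Cd37 to Cd53, over -0.53 to 0.0052 without 1 library. TPM carries no depth, so counting error is unknown.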
